A study of Mus musculus with 24 samples.

Results

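The comparison described here set 4 AMPK KO samples against 4 wild-type (WT) samples that had received the vehicle alone, 8 of the 24 samples of the series, over every gene on mouse chromosomes 1 to 19. The cells were mouse embryonic fibroblasts (MEFs), and AMPK KO cells lack both catalytic subunits of AMPK, which are encoded by Prkaa1 and Prkaa2. All 8 cultures were given DMSO, the solvent of the drugs used elsewhere in the study, and all 8 libraries carry the same sequencing batch in their labels. The other 16 samples were the same 2 lines treated with MK-8722, an AMPK activator, or torin1, an mTOR inhibitor. WT cells were at passages 12 to 15 and AMPK KO cells at passages 16 to 19, so the passage ranges did not meet. Each genotype is represented by 1 cell line, so genotype, line and passage range cannot be told apart. The p-values measure the spread among cultures within a line, estimated over all 24 libraries, the drug-treated ones included. How the lines were immortalised, and from which embryos or strain they came, is not given in the sources used here.

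Of 50957 autosomal genes in the deposited table, 15265 had enough reads to be tested. A gene was called when its adjusted p was under 0.05 in edgeR's quasi-likelihood test, with Benjamini-Hochberg adjustment over the 15828 genes tested, and its fold change was at least 1.2. Levels are given as CPM, counts scaled to the size of each library, or, where genes are set against each other, as TPM, which also corrects for transcript length. Differences are log2 fold changes of AMPK KO over WT with their standard errors (SE), so that negative values mean lower in AMPK KO. Total counts lay between 29218337 and 34192685 per library, and 1 count was worth 0.0300 to 0.0366 CPM. Counting intervals and floors below cover counting error only.

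The lines differed in their X-inactivation transcript. Xist, the long RNA that coats an inactive X chromosome, was at 281 to 333 CPM in the WT libraries and at 0.0300 to 0.0654 CPM in the AMPK KO libraries. The Y-linked Ddx3y had no count in WT and 0.259 to 0.427 CPM in AMPK KO, which rested on 43 counts over the group. The Y-linked Eif2s3y, Kdm5d and Uty had too few reads to be tested, and the sex of the lines was not tested. The targeted transcripts were still present. Prkaa1 was at 82.6, 78.0, 81.6 and 81.5 CPM in WT and at 66.9, 70.4, 73.3 and 73.0 CPM in AMPK KO, a log2 difference of -0.19 (SE 0.047) that was under the fold threshold and that changed sign, to 0.10, once a trend with GC content and length was removed. Prkaa2 was at 3.22 to 5.71 CPM in WT and 2.34 to 4.48 CPM in AMPK KO, and the groups overlapped. Whole-gene counts also take in exons that a knockout allele can leave in place, so these levels do not check the genotype labels.

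The lines differed over much of the genome. In AMPK KO 4779 autosomal genes were higher (31.3% of those tested) and 3910 were lower (25.6%), and for 9799 genes (64.2%) the 4 values of each line did not overlap those of the other. Of the called genes, 2426 were at least 2-fold higher and 1046 at least 2-fold lower, and 295 were at least 32-fold higher and 120 at least 32-fold lower. Genes that were all but silent in a line were more often silent in WT: 26 had at most 3 counts over the WT group and at least 5 CPM in AMPK KO, and 7 the reverse. With these backgrounds a called gene is common, and the counts for gene lists below are to be read against 31.3% higher and 25.6% lower. Scaling by library size alone moved the median of all autosomal genes from 0.02 to 0.16 and the share of calls that were higher from 55.0% to 68.1%. Changes are therefore relative to the median gene.

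HOX genes encode homeodomain transcription factors that lie in 4 clusters and are switched on in an order that follows their position in the cluster, so that the set in use records where along the body or limb a mesenchymal cell arose. Fibroblasts keep much of this pattern in culture. Pitx1 is a homeodomain factor of the embryonic hindlimb, and Hoxa13, Hoxa11 and Hoxd13 belong to the distal limb and tail end of the body. Genes in the middle and front of the Hoxb cluster are used in the trunk.

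The genes with the largest differences were almost silent in one line. Promoter windows are shown for 4 of them, to show the sequence before the annotated starts of genes expressed in one line and hardly in the other. Which starts the cells used was not tested. Hoxa13 and Slc5a7, a choline transporter gene, were silent in AMPK KO, and Hoxb8 and Cdh6, a cadherin gene, were silent in WT. Each line below holds the 250 bases before the RefSeq start in GRCm38.p6, written 5′ to 3′ along the gene, with every CG dinucleotide in capitals. The windows are at chr6:52260881-52261130 on the minus strand, chr17:54299035-54299284 on the minus strand, chr11:96281655-96281904 on the plus strand and chr15:13173676-13173925 on the minus strand, in the order printed.
Hoxa13: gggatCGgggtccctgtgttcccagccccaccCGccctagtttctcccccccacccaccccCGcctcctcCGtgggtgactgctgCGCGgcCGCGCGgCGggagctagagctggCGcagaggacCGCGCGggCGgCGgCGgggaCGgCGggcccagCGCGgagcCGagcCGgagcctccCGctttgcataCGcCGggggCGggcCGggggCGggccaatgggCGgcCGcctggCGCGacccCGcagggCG
Slc5a7: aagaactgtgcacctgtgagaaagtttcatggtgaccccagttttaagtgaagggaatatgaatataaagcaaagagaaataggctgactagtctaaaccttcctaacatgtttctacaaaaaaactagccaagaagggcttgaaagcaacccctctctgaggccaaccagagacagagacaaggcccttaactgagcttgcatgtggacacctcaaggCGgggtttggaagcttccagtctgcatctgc
Hoxb8: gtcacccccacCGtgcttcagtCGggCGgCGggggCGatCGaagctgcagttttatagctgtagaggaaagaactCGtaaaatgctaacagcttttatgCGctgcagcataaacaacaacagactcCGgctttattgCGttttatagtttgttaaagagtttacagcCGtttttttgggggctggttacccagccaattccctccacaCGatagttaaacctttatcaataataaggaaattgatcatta
Cdh6: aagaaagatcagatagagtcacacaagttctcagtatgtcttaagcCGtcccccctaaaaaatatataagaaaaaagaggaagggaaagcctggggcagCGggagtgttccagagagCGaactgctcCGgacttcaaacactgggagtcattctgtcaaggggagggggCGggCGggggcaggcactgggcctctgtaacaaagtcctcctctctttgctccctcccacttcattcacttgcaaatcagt

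Among the 20 leading genes, 9 had an entry in the promoter table, 6 of them lower and 3 higher in AMPK KO. The Hoxa13 window held 35 CG dinucleotides, Hoxb8 held 12, Cdh6 held 6 and Slc5a7 held 1, against a median of 6 over 32851 promoter windows of the same length. The lower genes had 1 to 35 and the higher genes 6 to 22. The letters GGGCGG, searched on both strands, were in 3 of 6 windows of genes lower in AMPK KO and in 3 of 3 windows of genes higher in it, against 32.7% of all windows. TATAAA was in 2 of 6 and 1 of 3 windows, against 12.4%, and CCAAT was in 2 of 6 and 1 of 3, against 33.8%. The AP-1 letters TGACTCA were in 1 of 6 windows of lower genes, against 4.46%. The TEAD letters GGAATG were also in 1 of 6, against 12.6%. The E-box CACGTG was again in 1 of 6, against 6.02%. These 3 motifs were in 0 of the 3 windows of higher genes. The AP-1 and TEAD letters were in the same window, that of Itih2, whose RefSeq start lay 713 bases from the annotated start. For Itih2, Hoxd13, Cyba and Adamts9 the bases after the RefSeq start were not found in transcripts of the gene. Their windows may therefore not lie before a start of the counted transcripts. A match to these letters is a description of the window and not evidence of binding.

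Of 39 HOX genes 21 passed the filter on low counts, and these split by cluster. In AMPK KO 12 were higher, 7 were lower and 2 did not pass. The 9 tested Hoxb genes were all among the 12. Hoxb9 was at 124, 113, 107 and 127 CPM in AMPK KO, while 3 WT libraries had none and the remaining one 0.188 CPM. Hoxb8 was at 19.7, 19.6, 16.3 and 19.0 CPM in AMPK KO with no count in any WT library, which makes it at least 715-fold higher against a floor of 3 counts over the WT group. On the same terms Hoxb2 was at least 910-fold, Hoxb7 at least 643-fold and Hoxb6 at least 562-fold higher. Hoxb13, named after its values were seen, stood apart from the trunk genes by its place at the tail end of the cluster, and was at 7.87 to 10.2 CPM in AMPK KO with no count in WT.

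The Hoxa cluster ran the other way toward its tail end. Hoxa2, Hoxa3 and Hoxa4 were higher in AMPK KO, by 4.12 (SE 0.22), 2.34 (SE 0.16) and 0.95 (SE 0.16). Hoxa5 and Hoxa6, with differences of -0.25 and -0.54, did not pass the test. From Hoxa7 on every tested Hoxa gene was lower, with differences of -1.21 for Hoxa7, -5.04 for Hoxa9, -3.18 for Hoxa10 and -9.09 for Hoxa11. Hoxa11 overlaps the antisense gene Hoxa11os, which fell with it from 27.8 ± 3.51 to 0.0395 ± 0.0480 CPM, and how the counting treated strand is not given in the sources used here. Hoxa13 was at 13.0, 11.4, 10.6 and 10.0 CPM in WT, and 2 counts were found over the 4 AMPK KO libraries, a ratio of 716 (95% counting interval 198 to 5910). Hoxd13 was at 42.4, 39.8, 41.1 and 42.4 CPM in WT against 3 counts over the AMPK KO group, a ratio of 1760 (603 to 8550). No library of either line lay between these states.

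**Figure D1:**
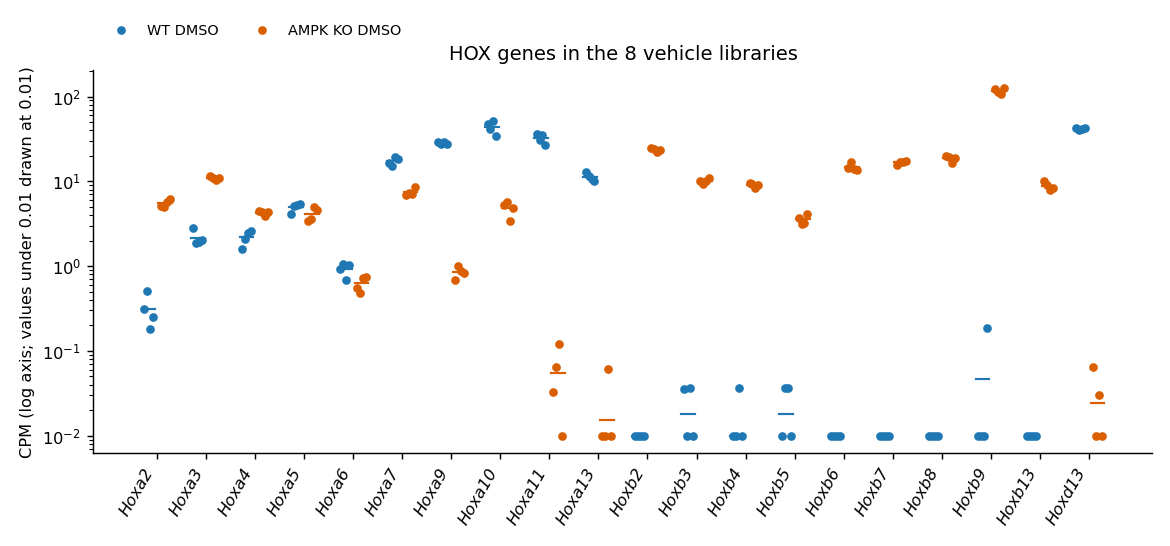
CPM of 20 tested HOX genes (log axis, ordered by cluster and number) in 4 WT and 4 AMPK KO vehicle libraries, with a bar at each group mean and values under 0.01 drawn at 0.01. Hoxb genes were seen in AMPK KO, and Hoxa11, Hoxa13 and Hoxd13 in WT, where the libraries of each line lay close together.

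Regional transcription factors outside the clusters were mostly lower in AMPK KO, 25 of 46 tested against 12 higher. Pitx1 had the largest fall of all named genes. It was at 93.8, 91.8, 88.5 and 82.0 CPM in WT, and 1 count was found over the 4 AMPK KO libraries, a ratio of 11300 (2030 to 447000). Prrx1, a factor of limb mesenchyme, fell from 202 ± 14.3 to 22.6 ± 2.56 CPM (SD, n = 4 each), and Irx3 from 10.6 ± 5.16 to 0.110 ± 0.0555 CPM. Lhx9, named after its values were seen, fell from 130 to 143 CPM in WT to 1.41 to 1.89 CPM in AMPK KO. Twist1, a factor of mesenchyme in general, fell by 1.13 (SE 0.052).

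A smaller set was higher in AMPK KO. Zic1, a zinc-finger factor of the dorsal trunk and neural tube, was at 35.7, 36.0, 35.3 and 35.2 CPM in AMPK KO against 3 counts over the WT group, a ratio of 1370 (467 to 6630). Foxf1, a factor of the mesenchyme around the gut and lung, was at 50.4, 49.4, 44.9 and 46.8 CPM in AMPK KO and at 0.176 to 0.512 CPM in WT, a difference of 7.09 (SE 0.16, adjusted p 2.4e-21, edgeR). Other leading rises were in genes of varied function. Gfra2, a co-receptor for neurturin, was at 21.9 to 30.4 CPM in AMPK KO and at 0 in WT. The orphan receptor gene Gpr149 was at least 506-fold higher, and Cdh6 was at 62.5 to 84.3 CPM against 1 count in WT. Pcdhga10 was at least 798-fold higher, but it shares its last exons with its neighbours in the protocadherin cluster and its value is uncertain.

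Leading falls reached beyond patterning genes. Sulf1, which removes sulphate from heparan chains and so tunes growth factor binding, was at 96.1, 124, 89.3 and 112 CPM in WT and at 0, 0, 0.0915 and 0.0300 CPM in AMPK KO. Cyba, a membrane subunit of NADPH oxidases, fell from 74.6 ± 3.41 to 0.208 ± 0.145 CPM. Slc5a7 was at 38.3 ± 11.9 CPM in WT against 2 counts in AMPK KO. Stmn2, a microtubule regulator of neurons, and Itih2, a carrier of hyaluronan, were at 15.3 and 16.7 CPM in WT and 0.0158 and 0.0545 CPM in AMPK KO.

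Both lines carried the general features of cultured mesenchymal cells but few of the surface markers of fibroblasts. On the TPM scale Vim, the intermediate filament of mesenchymal cells, was at 3810 to 4440 in WT libraries against 2110 to 2660 in those of AMPK KO. Col1a1 was at 617 to 1260 and 257 to 317. Pdgfrb was at 14.5 to 26.0 and 12.5 to 13.5 TPM. Pdgfra, at 0.0789 to 0.437 and 0.193 to 0.579 TPM, was near 0 in both lines, and Thy1 was at 0.872 to 2.60 in WT and 0.119 to 0.489 TPM in AMPK KO. Of 15 fibroblast markers tested, 11 were lower in AMPK KO and 2 higher. The rise of Pdgfra rested on about 1 CPM, its groups overlapped, and it was lost when single libraries were left out. Fbln1, a matrix glycoprotein, rose from 37.7 ± 3.64 to 71.8 ± 2.07 CPM.

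Most markers of other cell types were near 0, apart from an epithelial and a mesothelial one. Of 33 autosomal markers of epithelial, endothelial, blood, neural and pluripotent cells, 15 were tested, 5 higher and 5 lower, and together they held 0.0510% to 0.0610% of TPM in WT and 0.0415% to 0.0451% in AMPK KO. Adgre1 was at 0 in all 8 libraries, Ptprc and Pou5f1 in 7 of 8, and Cdh5 and Sox10 in 3 of 8. Epcam rose from 0.572 to 0.788 TPM in WT to 1.81 to 2.38 TPM in AMPK KO, Cdh1 stayed under 1 TPM and Nanog under 0.4 TPM. Krt19, an epithelial keratin, fell from 60.1 ± 9.01 to 17.8 ± 3.12 CPM, and Msln, a mesothelial surface protein, from 159 ± 45.9 to 80.0 ± 8.98 CPM. On the TPM scale Krt19 was at 79.3 in WT and 23.9 in AMPK KO, and Msln at 150 and 78.1, above Pdgfrb. In bulk cultures fewer cells of a type and less RNA per cell cannot be told apart.

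Contractile genes were lower in AMPK KO for 9 of 18 tested and higher for 4. Tagln, an actin-binding protein of smooth muscle and myofibroblasts, was at 780, 981, 770 and 880 CPM in WT and at 19.6, 18.2, 23.7 and 15.9 CPM in AMPK KO, a difference of -5.46 (SE 0.17, adjusted p 2.2e-18, edgeR). Acta2, smooth muscle actin, was at 957 to 1510 CPM in WT and 421 to 550 CPM in AMPK KO, a smaller step of -1.24 (SE 0.18). Mylk, myosin light chain kinase, and Synpo2, an actin-bundling protein, went up, to 4.46 ± 0.617 and 4.25 ± 0.536 CPM from under 1 CPM. Among 20 mesenchymal lineage genes 10 were higher and 8 lower. The chondrocyte factor Sox9 fell by 2.89 and the bone factor Runx2 by 1.16, while Lpl, lipoprotein lipase, was at 6.10 to 8.51 CPM in AMPK KO against 1 count in WT and Mkx, a tendon factor, rose by 3.02.

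The extracellular matrix is built from fibrillar collagens, the sheet-forming collagens and laminins of basement membranes, and glycoproteins and proteoglycans, and is shaped by cross-linking enzymes and proteases. Of 28 collagen chains tested, 10 were lower and 12 higher in AMPK KO. As a share of all TPM the collagen chains held 0.325% ± 0.0653 in WT and 0.184% ± 0.00957 in AMPK KO (SD, n = 4 each).

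Members of types I and III collagen fell. Col1a2, which pairs with Col1a1 in type I collagen, was at 2550, 3230, 2470 and 1760 CPM in WT and at 21.3, 22.7, 47.3 and 22.5 CPM in AMPK KO, a difference of -6.46 (SE 0.37, adjusted p 1.6e-13, edgeR). Col1a1 fell less, from 2380 to 4840 CPM to 893 to 1140 CPM, a difference of -1.77 (SE 0.26). The ratio of the chains therefore differed. In TPM, Col1a1 and Col1a2 were at 927 and 771 in WT and at 291 and 9.29 in AMPK KO. Col3a1, of type III collagen, fell by 3.10 (SE 0.41), and Col10a1, a network-forming chain of hypertrophic cartilage, was at 8.59 ± 3.48 CPM in WT against 1 count in AMPK KO. Col2a1, a fibrillar chain of cartilage, rose, from 1.12, 5.05, 0.757 and 0.910 CPM in WT to 8.84 to 11.2 CPM in AMPK KO. Col6a1 had 206 ± 45.1 and 240 ± 24.8 CPM and did not pass.

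Of 20 basement membrane genes 9 were higher and 7 lower, and the list's share of TPM was 0.310% ± 0.0191 in WT and 0.311% ± 0.0104 in AMPK KO. Col7a1, the chain of anchoring fibrils, was at 31.8, 29.1, 29.7 and 19.7 CPM in WT and at 257, 276, 234 and 273 CPM in AMPK KO, a difference of 3.24 (SE 0.14, adjusted p 1.3e-15, edgeR). Col18a1, a collagen of basement membrane zones, rose from 89.0 to 158 CPM to 390 to 483 CPM. Lama2, a laminin chain of muscle and nerve basement membranes, rose from 2.32 to 4.72 CPM to 51.0 to 67.4 CPM. Col4a1, of the type IV network, rose by 0.40 (SE 0.11), a small step beside the others, which lost its call once a trend with GC content and length was removed. Nid2, a linker of laminin and type IV collagen, fell by 1.36.

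Proteoglycans and matrix glycoproteins were lower for 35 of 51 tested (68.6%) and higher for 9. Fbln2, an elastic fibre glycoprotein, was at 489, 467, 438 and 617 CPM in WT and at 10.9, 12.6, 25.4 and 10.6 CPM in AMPK KO. Smoc2, a calcium-binding matrix protein, fell by 5.05 (SE 0.39) and Postn, periostin, by 3.5 (SE 0.78), a call lost with passage as a covariate. Fn1, fibronectin, fell from 3530 ± 395 to 2090 ± 117 CPM, and Sparc by 0.28 (SE 0.096), a call that was lost when single libraries were left out. Thbs2, a thrombospondin, went against the list, at 1.38 to 3.44 CPM in WT and 34.3 to 42.0 CPM in AMPK KO, as did Tnxb, a tenascin, with a rise of 3.42.

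Enzymes that mature collagen were lower for 14 of 26. Lox, lysyl oxidase, which starts the cross-links between fibrils, was at 172, 276, 133 and 172 CPM in WT and at 3.04, 4.21, 7.35 and 3.48 CPM in AMPK KO. Tll1, which trims procollagen, fell from 40.3 to 60.5 CPM to 1.43 to 2.27 CPM. Adamts14, which cuts the amino end of procollagen, rose by 2.32 and Tgm2, transglutaminase 2, by 1.60. Matrix proteases and inhibitors were evenly divided, with 13 of 35 higher and 13 lower. Mmp2 was at 276, 325, 265 and 240 CPM in WT and at 2.22, 3.17, 5.52 and 2.52 CPM in AMPK KO, while Mmp9, the other gelatinase, rose from 0.220 to 0.549 CPM to 12.8 to 17.0 CPM. Adamts9, a protease of versican, was at 36.3 to 58.4 CPM in AMPK KO against 1 count in WT.

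Of 33 integrins and adhesion molecules 13 were lower and 10 higher. Cdh3, P-cadherin, fell from 116 to 153 CPM to 1.42 to 2.39 CPM. Cdh6 appeared in AMPK KO as given above, and Cadm1, an immunoglobulin-type adhesion molecule, rose from 13.3 ± 3.72 to 143 ± 13.3 CPM. In the plot of matrix and contractile genes the WT and AMPK KO points are separated for every gene drawn but Col6a1. The genes drawn were picked by hand, many of them for large changes, and 64.2% of all autosomal genes tested were separated in this way.

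**Figure D2:**
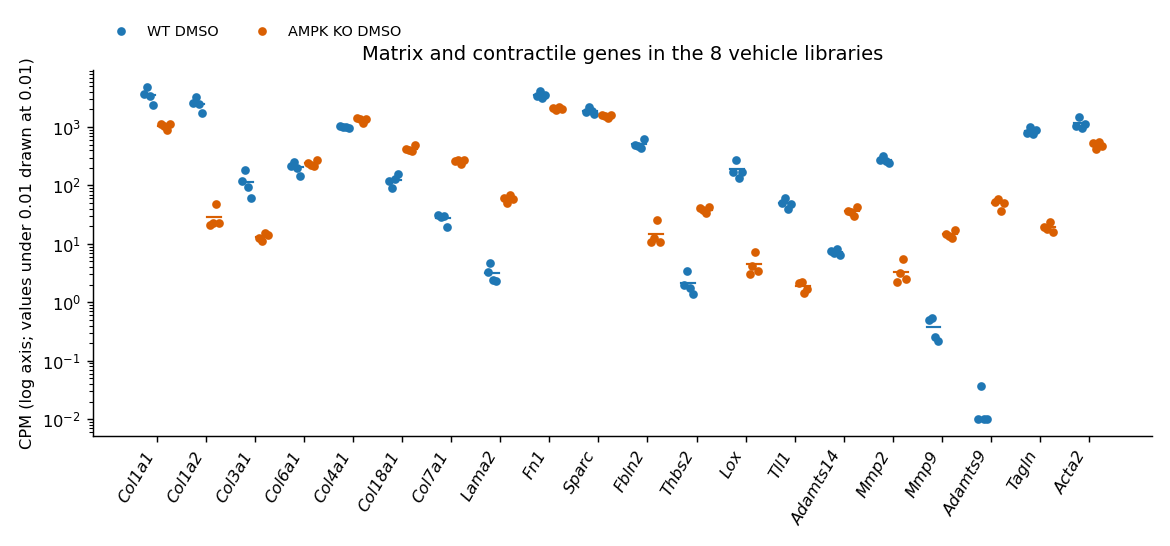
CPM (log axis) of 20 matrix and contractile genes in 4 WT and 4 AMPK KO vehicle libraries, with a bar at each group mean. Col1a2, Fbln2, Lox, Mmp2 and Tagln lay far lower in AMPK KO, while Col7a1, Lama2, Thbs2, Mmp9 and Adamts9 lay far higher.

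AMPK is a trimer of a catalytic alpha, a scaffolding beta and a nucleotide-binding gamma subunit, switched on by the kinase LKB1. Of 14 subunit and LKB1-complex genes tested, 8 were lower and 2 higher. Prkag1, gamma 1, rose from 70.6 to 73.5 CPM to 99.9 to 103 CPM, and Prkag2 fell by 0.55 (SE 0.069). Prkab1, beta 1, had a difference of -0.22, under the fold threshold, and Prkab2, beta 2, fell by 0.28. Cab39l, a scaffold of the LKB1 complex, fell by 0.66. The calls of Prkaa2 and Prkab2 were lost when single libraries were left out.

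TGF-beta and BMP ligands act through receptor kinases and SMAD proteins and drive matrix genes in fibroblasts. Of 48 members tested 29 were lower (60.4%) and 6 higher. Among ligands, Inhba, the activin A subunit, was at 105, 95.5, 98.6 and 104 CPM in WT and at 9.16, 8.64, 8.82 and 8.19 CPM in AMPK KO, and Bmp4 fell by 3.21 (SE 0.38). Tgfb1 went the other way, from 53.1 to 65.5 CPM to 126 to 145 CPM. Of the antagonists, Fst, follistatin, rose by 1.08 (SE 0.26). The BMP target Id1 fell by 0.63 (SE 0.11).

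WNT pathway members were moved in both directions, 22 of 46 lower and 19 higher. Wnt10b, a ligand, fell from 31.3 to 36.4 CPM to 0.360 to 0.763 CPM, and Rspo2, which amplifies WNT signals, from 37.6 to 72.1 CPM to 0.600 to 0.752 CPM. The secreted inhibitor Sfrp1 rose from 0.577 ± 0.130 to 11.8 ± 0.709 CPM and Sfrp2 fell by 5.06 (SE 0.65). Axin2, a target gene of the pathway, rose by 2.05 (SE 0.32) but stayed under 1 CPM in both lines. In Notch and Hedgehog signalling the co-receptors changed places. Boc was at 0.951 to 1.19 CPM in WT and 28.4 to 33.3 CPM in AMPK KO, while Gas1 fell from 51.9 to 90.7 CPM to 4.47 to 6.06 CPM. The Hedgehog targets Ptch1 and Gli1 fell by 1.07 and 0.76, and the Notch targets Hey1 and Hey2 by 1.76 and 3.5.

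Growth factors and receptor kinases were lower for 32 of 75 and higher for 21. The mesenchymal ligands Fgf7 and Fgf10, which act on epithelium, fell from 24.6 to 49.1 and 9.80 to 15.2 CPM to under 0.5 CPM. Igf2 fell by 3.58 (SE 0.39). Gas6, a ligand of the AXL receptor family, rose from 0.816 to 1.13 CPM to 15.0 to 18.2 CPM. Genes that respond at once to ERK signalling, or feed back on it, were lower for 21 of 35. Spry2, an inhibitor of receptor kinase signals, fell by 1.52 (SE 0.10), Egr1 by 0.66 (SE 0.14), and Myc from 151 to 212 CPM to 63.6 to 75.7 CPM. Fos had 3.78 ± 1.12 and 2.45 ± 0.932 CPM and did not pass, and Dusp4, an ERK phosphatase, rose by 3.45 (SE 0.20).

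YAP and TAZ are co-activators that respond to cell tension, and 18 of 29 members of their pathway were lower (62.1%) and 3 higher. The target Ccn2 was at 334 to 578 CPM in WT and at 78.4 to 105 CPM in AMPK KO, a difference of -2.20 (SE 0.19). The other targets named, Ccn1, Ankrd1 and Amotl2, fell by 0.83, 0.75 and 1.02. Stk4, a kinase that restrains YAP, rose by 0.50. In cAMP signalling 15 of 37 were lower and 13 higher. There the phosphodiesterases differed most, with Pde3b at 11.8 to 14.9 CPM in AMPK KO against 1 count in WT, Pde10a up by 6.43 (SE 0.16) and Pde4d down by 2.20 (SE 0.099).

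Genes of the interferon response and antigen presentation were higher for 29 of 50 (58.0%) and lower for 7. MHC class I proteins show peptides to T cells. The peptides are cut by immunoproteasome subunits such as Psmb8 and the genes are switched on by Nlrc5. Nlrc5 was at 0.105, 0.293, 0.360 and 0.377 CPM in WT and at 18.0, 16.3, 20.2 and 20.9 CPM in AMPK KO, a difference of 6.02 (SE 0.28, adjusted p 4.3e-15, edgeR). Psmb8 was at 0.914 to 1.68 CPM and 40.6 to 66.6 CPM. H2-K1, a class I heavy chain, was at 79.0 to 100 and 385 to 636 CPM, although its reads can be shared with related class I genes. Tap1, Tap2 and B2m, named after their values were seen, rose by 2.67, 4.03 and 1.30. The list held 0.120% ± 0.00354 of TPM in WT and 0.360% ± 0.0560 in AMPK KO.

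Other members moved either way. Isg15, a ubiquitin-like modifier, rose by 0.81 (SE 0.22), with overlap between groups. Ifit1 had 3.78 ± 1.06 and 3.17 ± 1.16 CPM and did not pass. Trim25, a ubiquitin ligase of RNA sensing, was at 48.7 to 56.0 CPM in WT and 0.518 to 0.793 CPM in AMPK KO, and Irgm1, an interferon-induced GTPase, fell by 1.75 (SE 0.11). Among 37 chemokine, cytokine and NF-kB feedback genes 20 were higher and 8 lower. Ptges, a prostaglandin E synthase, was at 13.2 to 16.5 CPM in AMPK KO against 1 count in WT. Ccl2 rose by 1.75 and Cxcl16 by 3.87, and Cxcl12 fell from 205 to 298 CPM to 57.9 to 79.1 CPM. The IL-33 receptor gene Il1rl1 fell by 4.94 (SE 0.19) and Tnfaip2 by 5.45 (SE 0.19).

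Imprinted genes, expressed from the maternal or the paternal copy, were lower for 15 of 28 and higher for 8. Mest was at 0.0351 to 0.0628 CPM in WT and 4.50 to 4.73 CPM in AMPK KO, and Nnat, also paternally expressed, rose by 6.47 (SE 0.33). Snrpn fell from 11.7 to 12.9 CPM to 1.04 to 1.29 CPM, and the maternally expressed RNA Meg3 by 3.82 (SE 0.53). H19, at 4.61 ± 2.97 and 1.92 ± 1.33 CPM, did not pass. In the p53 list 14 of 32 were lower and 6 higher. Trp53 itself had 388 ± 12.1 and 386 ± 28.8 CPM. Perp, a p53 target in cell junctions, fell from 14.5 ± 0.998 to 0.920 ± 0.105 CPM, Cdkn2a by 0.36, a call lost under scaling by library size alone, and Cdkn2b by 0.95, while Cdkn1a at 41.9 ± 16.2 and 50.9 ± 7.32 CPM did not pass.

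AMPK slows synthesis of fat and sterol and promotes oxidation when energy is short. Glycolysis and glucose transport genes were higher for 15 of 36 and lower for 10. The transporter Slc2a1, the regulator Pfkfb3 and Txnip, with differences of -0.15, -0.05 and 0.04, did not pass. Hk2, hexokinase 2, fell by 0.43 (SE 0.10) and Ldha, with a difference of -0.24, was under the fold threshold. The kinases that close pyruvate dehydrogenase changed places. Pdk1 was at 13.6 to 17.9 and 4.01 to 6.10 CPM, and Pdk4 at 2.61 to 3.37 and 9.93 to 13.4 CPM. Pcx, pyruvate carboxylase, rose by 1.53 (SE 0.071).

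In fatty acid synthesis and storage 14 of 44 were higher and 14 lower. Acaca and Fasn, the main enzymes of synthesis, fell by 0.35 and 0.31, calls that were lost under scaling by library size alone, Scd1 by 0.81, and Srebf1, with a difference of -0.05, did not pass. Acacb, the isoform of acetyl-CoA carboxylase that limits entry of fat into mitochondria, rose from 1.94 to 2.51 CPM to 6.09 to 9.06 CPM. Acsl6, an acyl-CoA synthetase, rose by 4.52 (SE 0.16). In oxidation and mitochondrial regulation 17 of 48 were higher and 8 lower. Cpt1a, which carries fatty acids into mitochondria, was at 18.1 to 19.2 and 27.9 to 37.5 CPM. The regulators Esrra and Ppargc1b rose by 0.96 and 1.92, and Ppargc1a, under 1 CPM in both lines, did not pass.

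Sterol genes were lower for 20 of 36 (55.6%) and higher for 6. The synthesis enzymes fell by modest steps: Hmgcs1 by 0.70 (SE 0.24) and Fdft1, squalene synthase, by 1.08 (SE 0.18). The call of Hmgcs1 was lost once the trend with GC content and length was removed. The groups overlapped for Hmgcs1, since WT replicate 4 was at 59.6 CPM while the other WT libraries were at 108 to 110 CPM. Sqle, with a difference of -0.16, did not pass. Insig1, which holds back the sterol-responsive transcription factors, fell by 1.14. Members that carry sterol out of cells were among those that rose. Abcg1 went from 0 to 0.140 CPM in WT to 11.3 to 14.2 CPM in AMPK KO and Apoe from 1.07 to 1.59 CPM to 12.8 to 18.7 CPM.

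Respiratory chain and ATP synthase subunits were higher for 24 of 80 and lower for 11, with Cox6b1 and Cox8a up by 0.81 and 0.78 and Ndufs6 and Uqcrb down by 0.58 and 0.42. In the tricarboxylic acid cycle 10 of 31 were lower and 7 higher, among them Sucla2 and Suclg2, subunits of succinyl-CoA ligase, which fell by 0.71 and 0.61. NADPH and NRF2 genes were higher for 16 of 48 and lower for 12. Nqo1, an NRF2 target, rose from 3.57 to 4.68 CPM to 14.2 to 17.2 CPM, Hmox1 with a difference of 0.09 did not pass, and Nnt fell by 0.95 (SE 0.067). In the serine, one-carbon and ATF4 list 14 of 47 were higher and 8 lower. Ass1, which makes arginine precursors, rose from 28.4 to 42.4 CPM to 85.6 to 103 CPM and Slc1a5, a glutamine transporter, fell by 1.07, a call lost with passage as a covariate, while Atf4 and Mthfd2 did not reach the threshold. Fitting passage as a covariate made this list 25 higher and 2 lower. Purine and pyrimidine genes were higher for 10 of 33 and lower for 6, Paics and Adss among the latter.

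Lysosomal genes were higher for 22 of 79 and lower for 22. Ctsz, cathepsin Z, was at 75.9, 73.7, 73.6 and 76.4 CPM in WT and at 0.523, 0.356, 0.641 and 0.630 CPM in AMPK KO, a difference of -7.10 (SE 0.11, adjusted p 2.3e-24, edgeR), the largest of the list. Rragd, a GTPase that recruits mTORC1 to lysosomes, rose from 0.288 to 0.491 CPM to 4.2 to 7.08 CPM, and Tfeb by 0.36, with overlap between the groups. Flcn, with a difference of -0.21, was under the fold threshold. Autophagy genes were higher for 11 of 45 and lower for 9. The initiating kinases Ulk1 and Ulk2 and their partner Rb1cc1 fell by 0.37, 0.88 and 0.98, of which that of Ulk1 was lost under scaling by library size alone. Optn, a cargo receptor, rose by 1.72 and Map1lc3b, with a difference of -0.06, did not pass.

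Cell growth draws on DNA replication, mitosis and ribosomes. DNA replication genes were higher for 16 of 53 and lower for 5, with Ccne1, cyclin E1, up from 17.1 to 18.8 CPM to 41.8 to 48.1 CPM, Ccnd2, cyclin D2, down from 445 to 548 CPM to 158 to 178 CPM, and Pcna at 286 ± 14.1 and 281 ± 7.76 CPM. Mitosis genes were higher for 11 of 47 and lower for 6, and Mki67, the proliferation marker, had 477 ± 25.1 and 450 ± 22.8 CPM and did not pass. Cytosolic ribosomal proteins, with 17.3% ± 0.354 of TPM in WT and 16.7% ± 0.380 in AMPK KO, were lower for 20 of 84 and higher for 6. Without WT replicate 2 the lower count was 31. Among the called autosomal protein-coding genes, with gene models passed over, the largest rises in CPM were those of Pabpc1, Fth1, Lgals1, Rpl8 and H2-K1. The largest falls were those of Col1a1, Col1a2, Eef1a1, Actg1 and Vim. The small steps of Eef1a1, Rpl8 and Lgals1, at -0.31, 0.41 and 0.36, lost their calls without the trend with GC content and length. The plot of lists sets these shares side by side.

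**Figure D3:**
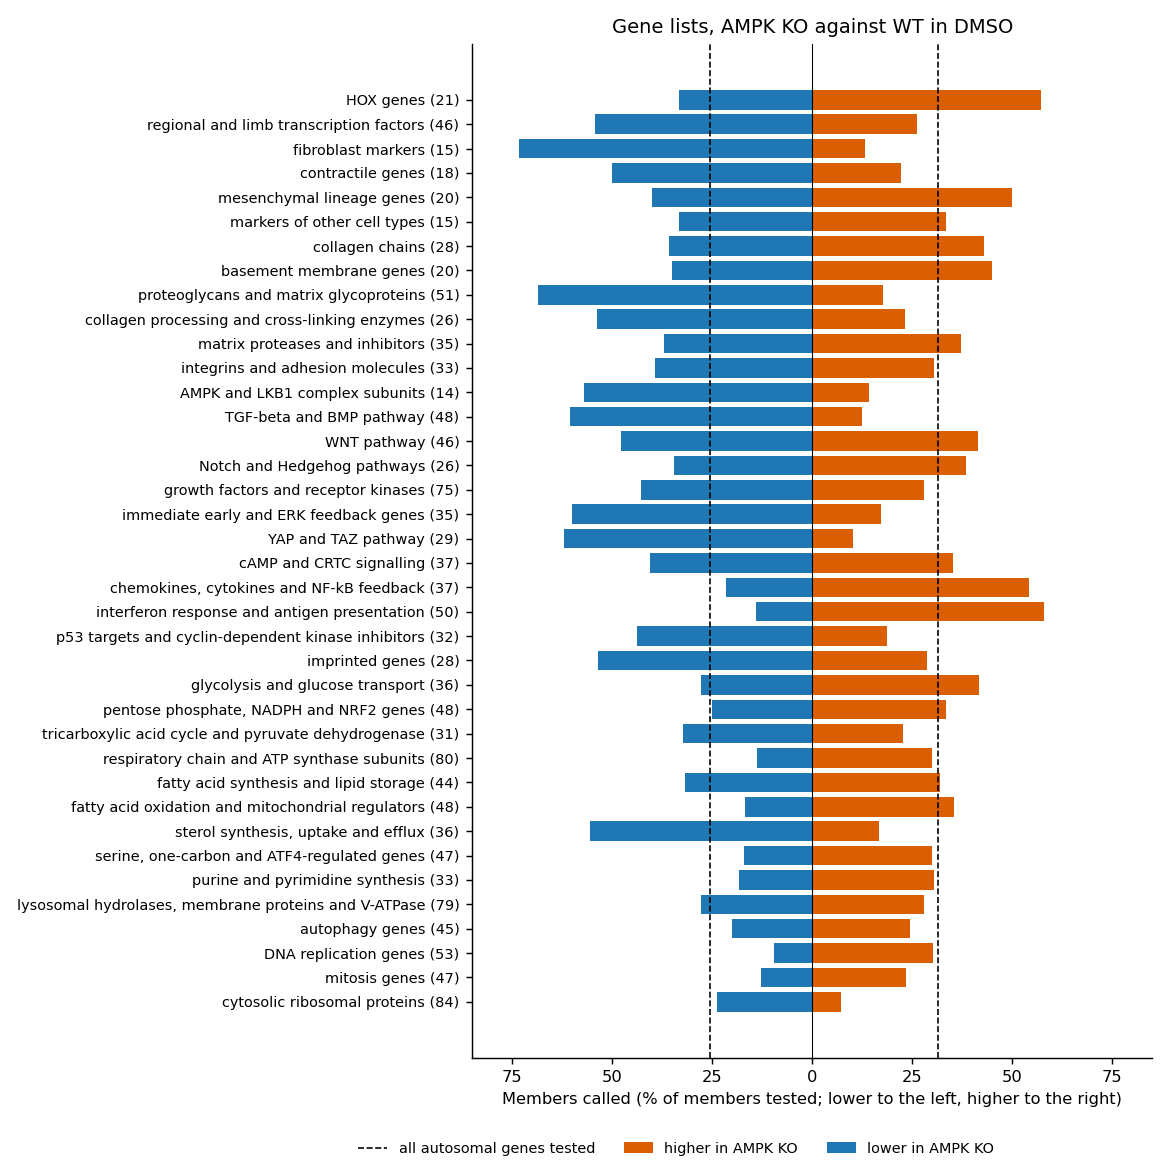
Share of tested members (number in parentheses) called higher (right) or lower (left) in AMPK KO for 38 gene lists, with dashed lines at 31.3% and 25.6%, the shares over all autosomal genes tested. Fibroblast markers, matrix glycoproteins, TGF-beta, YAP and ERK lists reach furthest to the left, and interferon, HOX and chemokine lists furthest to the right.

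The differences were also arranged along chromosomes. The median log2 difference was 0.49 over 644 genes on chromosome 15, 0.40 over 558 genes on chromosome 19 and 0.30 over 471 genes on chromosome 16. It was -0.39 over 533 genes on chromosome 14, -0.37 over 447 on chromosome 18, -0.32 over 865 on chromosome 9, -0.27 over 638 on chromosome 13 and -0.19 over 773 on chromosome 10. The other 11 autosomes had medians from -0.10 to 0.15. On chromosome 15, 62.3% of genes were higher and 10.1% lower, and on chromosome 14 54.0% were lower and 15.6% higher, against 31.3% and 25.6% overall. The shifts were close to equal in the libraries of a line: against the WT mean, with 0.5 CPM added before the log, the median over chromosome 15 was 0.42 to 0.44 in each AMPK KO library and -0.01 to 0 in each WT library. Scaling by library size alone raised every median by about the same amount, to 0.63 on chromosome 15 and -0.25 on chromosome 14, and turned those of chromosomes 3, 6 and 12 from -0.10, -0.02 and -0.04 to 0.04, 0.12 and 0.10. Copy number was not measured, and its part in these shifts was not tested.

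Windows of 50 neighbouring tested genes, in steps of 25, placed the shifts more closely. Over 583 windows the medians ran from -0.66 to 1.03, with 30 above 0.5 and 5 below -0.5. The highest was on chromosome 15 from 99029891 to 101213684 (GRCm38), where 40 of 50 genes were higher. On chromosome 7 the shift was in part of the chromosome, where 10 successive windows between 19282624 and 42692742 had medians of 0.55 to 0.92. A peak of 0.63 on chromosome 11, from Pdk2 to Kpnb1, spans the Hoxb cluster. A peak of 0.57 on chromosome 17, from Angptl4 to Dxo, spans the class I MHC gene H2-K1 and the antigen presentation genes Tap1, Tap2 and Psmb8. A peak of 0.82 on chromosome 13 was a histone cluster. There 34 of 50 genes were histone genes with a median of 0.87, against -0.02 for the rest of the window, in libraries selected for poly(A) tails. Of these 34, 16 were called higher, and their median was 0.35 with MK-8722 and 0.36 with torin1.

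**Figure D4:**
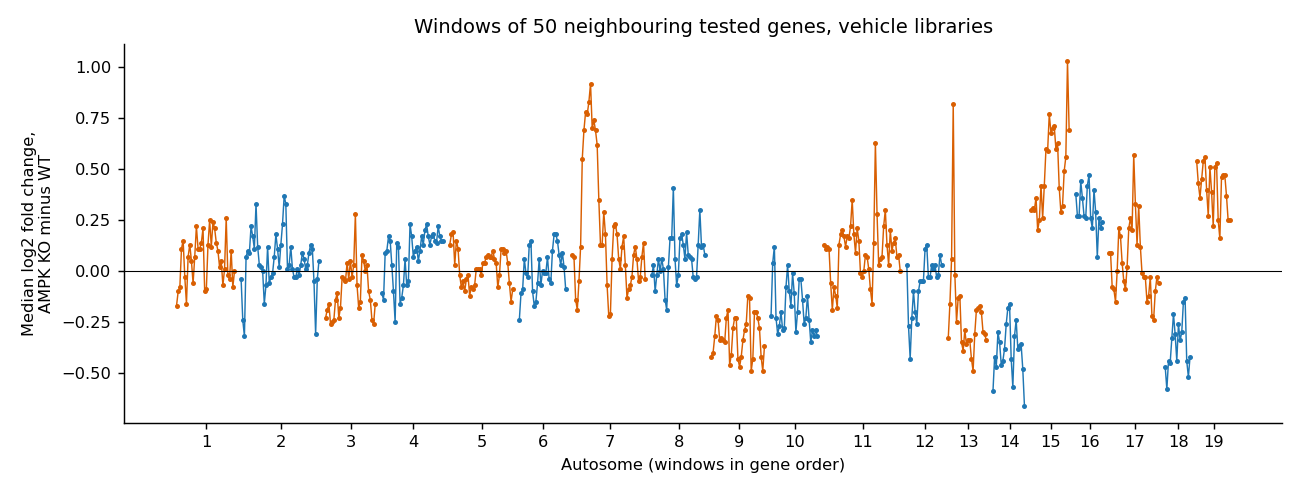
Median log2 fold change (AMPK KO minus WT, vehicle) in 583 windows of 50 neighbouring tested genes, in gene order along the 19 autosomes, with colours alternating between chromosomes. Every window of chromosomes 15, 16 and 19 lies above 0 and every window of 9, 14 and 18 below it, and a block on chromosome 7 reaches 0.92.

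Members of several metabolic and growth lists were counted along this arrangement. Chromosomes were grouped for this after their medians were seen, with 7, 15, 16 and 19 as the higher set and 9, 10, 13, 14 and 18 as the lower set. Of ribosomal protein genes, 6 of 22 in the higher set were higher and 0 lower, 14 of 20 in the lower set were lower and 0 higher, and 6 of 42 elsewhere were lower. Of respiratory chain genes, 15 of 22 in the higher set were higher and 0 lower, and 10 of 18 in the lower set were lower and 0 higher. Over all genes the higher set had 1417 of 2844 higher and 351 lower, and the lower set 1559 of 3256 lower and 630 higher. Outside both sets 2732 of 9165 genes were higher and 2000 lower. The sets were chosen from these same differences, so a tilt of members toward the direction of their set was fixed in advance. All 11 sterol genes in the lower set were lower, as were 9 of 18 outside both sets.

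Some other lists had calls mostly of one direction outside both sets too, and the difference between lists was not tested. The 21 HOX genes lie outside both sets. Proteoglycans and matrix glycoproteins were lower for 7 of 10 members in the higher set, 8 of 8 in the lower set and 20 of 33 elsewhere. Interferon and antigen presentation genes were higher for 25 of 36 outside both sets, for 4 of 12 in the higher set, where 1 was lower, and for 0 of 2 in the lower set, where both were lower. Of TGF-beta and BMP members 13 of 18 in the lower set and 15 of 25 outside both were lower, while of 5 in the higher set 3 were higher and 1 lower. Of contractile genes 4 of 5 in the lower set were lower, while of 9 outside both sets 4 were lower and 3 higher. Of the 4 in the higher set 1 was lower and 1 higher.

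**Figure D5:**
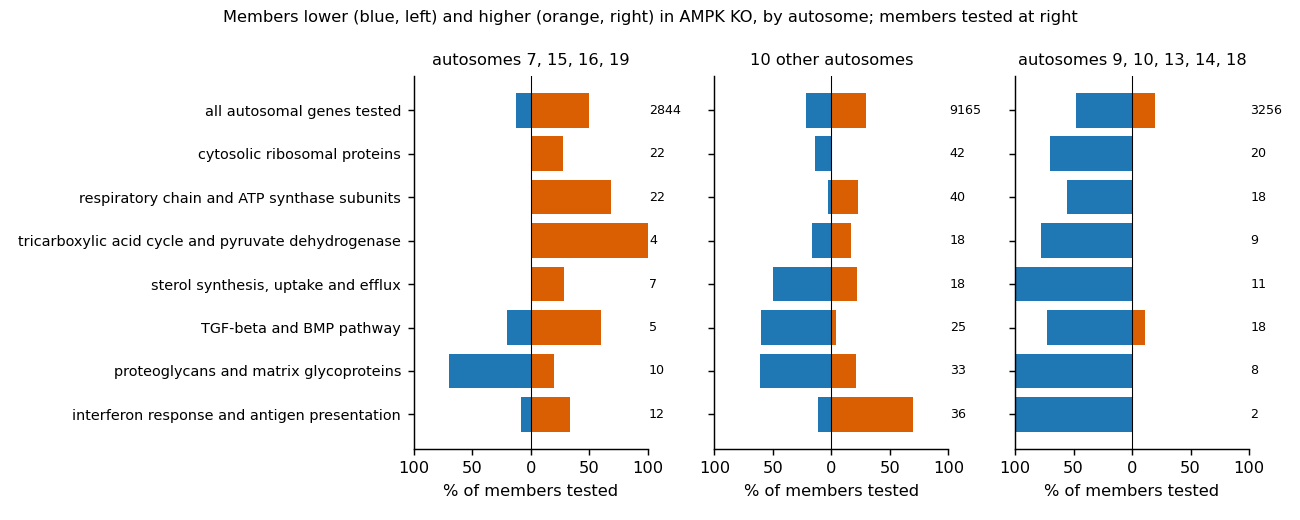
Share of tested members lower (blue, left) or higher (orange, right) in AMPK KO for all autosomal genes and 7 lists, on chromosomes 7, 15, 16 and 19, on 10 other autosomes, and on chromosomes 9, 10, 13, 14 and 18, with the number of members at the right of each bar. Ribosomal and respiratory chain members turn from higher to lower between the panels, as do all autosomal genes, whose medians set the groups. Matrix glycoproteins are mostly lower in each panel.

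The same lines were measured again under both drugs, in libraries whose values are not in the vehicle contrast, although they entered the same fit and shared its filter and estimate of spread. These libraries covered the same passages of each line as the vehicle ones. With MK-8722, 31.8% of autosomal genes were higher and 27.1% lower in AMPK KO than in WT, and with torin1 31.4% and 23.4%. Of the 4779 genes higher in vehicle, 4003 (83.8%) were also higher with MK-8722 and 4082 (85.4%) with torin1. Of the 3910 lower genes, 3191 (81.6%) were lower with MK-8722 and 3002 (76.8%) with torin1. Few turned, 42 and 12 with MK-8722 and 7 and 6 with torin1. The most extreme genes kept their state: Hoxb9 was at 124 ± 7.32 CPM with MK-8722 and 56.6 ± 5.13 CPM with torin1 in AMPK KO and under 0.1 CPM in WT, and Pitx1 was at 77.1 ± 6.07 and 63.1 ± 5.94 CPM in WT (SD, n = 4 each), while its means in AMPK KO were 0.0310 and 0.0305 CPM. Col1a2 in AMPK KO was at 23.4 ± 10.2 and 13.0 ± 4.54 CPM, against 2480 ± 624 and 1390 ± 580 CPM in WT. The chromosome medians were close to those in vehicle, with 0.48 and 0.50 on chromosome 15 and -0.35 and -0.31 on chromosome 14.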

How the data were processed

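The authors aligned reads of poly(A)-selected RNA libraries to GRCm38 with STAR and quantified them with Salmon, per the labels and the study's methods, with molecular identifiers taken into account. The gene table deposited for the series holds estimated counts, which were used as deposited. TPM values were made per transcript by the authors with Salmon before the files were deposited, per the labels and the study's methods. For each library these transcript TPM were summed here to give TPM per gene. The estimated counts were rounded before fitting, and genes were placed on chromosomes with a GENCODE annotation of GRCm38, which gave a position for 99.92% of tested genes. The other 563 tested genes, on X, Y, the mitochondrial genome or unplaced, entered the fit but not the lists.

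All 24 libraries, in 6 groups of 4, were fitted together in edgeR 4.0.16 (R 4.3.3) with TMM scaling, its expression filter and the quasi-likelihood test, and the vehicle contrast was taken from that fit. The fit was also tried on simulated data for this contrast over 15615 genes, where 200 well-counted genes were changed, as many raised as lowered. It recovered 96% of 2-fold and 89% of 1.5-fold changes, and 6 of 191 calls were false. Changes in genes with few counts, or in as many genes as seen here, were not simulated, so these rates do not cover them. CPM are relative to library size after TMM scaling. Ratios for genes with 1 to 3 counts in a group carry exact 95% intervals, and a group with no count was set to a floor of 3 counts. Promoters came from RefSeq. DESeq2 1.42.0, limma 3.58.1 and mgcv 1.9.3 served for alternatives and trends.

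The gene lists, and the members named, were chosen with earlier results of these data known. Named genes were anchors of each list, up to 2 called members per direction with the largest change and at least 2 CPM on average, the 10 genes per direction with the largest change at 5 CPM or more and no overlap, and the 5 per direction with the largest change in CPM. Other list members that the text names were chosen after their values were seen, and some genes named by these rules are not reported here. Replicate numbers did not pair the samples. Total counts set the counting error of each value, and the cultures of a line differed by more than counting error. Every treatment of a line covered the same passages, and no fit paired libraries by passage.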

Additional observations from a re-analysis of the deposited data

Results flagged for a closer look

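Among 413 groups of 4 libraries of the named genes, at a mean of 1 CPM or more, 26 held a library far from the other 3 by Dixon's test, and chance alone flags about 1 in 20 groups. Of these, 9 were in WT replicate 4, the WT culture of lowest passage, and 6 in AMPK KO replicate 3, the AMPK KO culture of lowest passage. The part of passage in these values was not tested.

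In WT replicate 4, 3 sterol synthesis genes were low: Hmgcs1 at 59.6 CPM (others 108 to 110), Sqle at 71.7 (113 to 119) and Fdft1 at 52.8 CPM (76.2 to 80.3). In the same library Cdkn1a was at 65.8 CPM (30.5 to 36.3), Mdm2 at 88.1 (77.9 to 79.0), Myc at 212 (151 to 157), Dusp6 at 44.7 (28.4 to 28.9), Pfkfb3 at 17.1 (14.8 to 15.1) and E2f7 at 124 CPM (others at 128). Cdkn1a and Mdm2 are p53 targets, and Dusp6 is an ERK phosphatase.

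In AMPK KO replicate 3 the matrix genes flagged as high were Col1a2, at 47.3 CPM (others 21.3 to 22.7), and Fbln2, at 25.4 CPM (10.6 to 12.6). Lox, Mmp2 and Col3a1 were among the matrix genes also highest in that library but not flagged. Col1a1 at 893 CPM (1020 to 1140) and Col7a1 at 234 CPM (257 to 276), also not flagged, were lowest there. Igf2 was at 2.65 (0.556 to 0.906), Fnip1 at 25.7 (20.6 to 20.7), Mki67 at 485 (437 to 440) and Slc2a4 at 4.45 CPM (3.0 to 3.07).

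The remaining values were spread over other libraries. In WT replicate 2, Col2a1 was at 5.05 CPM (0.757 to 1.12), Hmox1 at 45.6 (37.6 to 38.7), Irgm1 at 71.3 (54.8 to 57.0), Sox9 at 10.7 (11.7 to 11.9) and Spred3 at 11 CPM (13.0 to 13.3), and in WT replicate 3 Thy1 was at 0.83 CPM (1.43 to 1.48). In AMPK KO replicate 1, Cdkn1c was at 8.83 (11.4 to 11.6) and Nnat at 5.33 CPM (3.66 to 3.94), in replicate 2 Lpin3 was at 1.81 (1.07 to 1.11) and Prkab2 at 9.13 CPM (11.1 to 11.2), and in replicate 4 Prkab1 was at 47.1 CPM (48.7 to 48.8).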

How the results depend on the processing

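Asking for a fold change of 1.5 moved the genes called lower from 3910 to 2001 and those called higher to 3347. The other alternatives kept each count within 1.5 times, at 3583 to 5936 higher and 2785 to 5018 lower, and none called a gene in the opposite direction to the comparison as reported. Leaving out each library in turn gave 4443 to 4743 higher and 3904 to 4316 lower, and 10 of 221 calls among named genes were lost in at least one of these fits (Asns, Cd14, Igf1, Pdgfra, Phgdh, Prkaa2, Prkab2, Sparc, Sqstm1 and Top2a). The replicate block gave 4769 and 3905 over all libraries and 4339 and 3707 over vehicle libraries alone, with correlations of same-numbered deviations between -0.0923 and 0.0142. Passage as a linear covariate, which in these groups does not overlap between genotypes, ended the named calls of Col4a1, Ddit3, Fasn, Fnip1, Igf1, Lgals1, Postn, Prkaa2, Slc1a5, Tfeb, Top2a and Ulk1, beside turning that of Asns, and removing the trend with GC content and length ended 17. A minimum of 10 counts in every vehicle library leaves out genes silent in a line, and so leaves 2 HOX genes higher and 4 lower. Passage also made the mitosis list 10 lower, and the serine list had 9 higher without WT replicate 1 or 3.

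Of the genes whose difference changed sign, Asns was a called fall of -0.36, and the others were not called. With passage as a covariate the differences were 0.09 for Asns, -0.12 for Ccnb1, -0.16 for Col6a1, 0.09 for Ctsa, 0.11 for Ifit1, 0.05 for Map1lc3b, 0.19 for Mthfd2, 0.06 for Pcna, 0.03 for Pfkfb3 and 0.05 for Trp53. With library size alone they were 0.14 for Ctsa, 0.09 for Map1lc3b, 0.06 for Mki67, 0.14 for Mthfd2, 0.11 for Pcna, 0.09 for Pfkfb3, 0.08 for Srebf1 and 0.13 for Trp53. Without the GC and length trend they were -0.08 for Hexa, -0.02 for Hmox1, 0.10 for Mki67, 0.01 for Mthfd2, 0.11 for Pcna and 0.10 for Prkaa1. With 10 counts in every library they were 0.03 for Ctsa, 0.03 for Mthfd2, 0.01 for Pcna and 0.03 for Trp53, and with no filter -0.03 for Ccnb1 and -0.00 for Txnip. In vehicle libraries alone they were 0.01 for Ctsa, 0.00 for Mthfd2 and 0.00 for Trp53, and with the replicate block there 0.01 for Ctsa and 0.01 for Mthfd2. Leaving out single libraries gave -0.05 to 0.04 for Ccnb1, -0.08 to 0.00 for Ctsa, -0.02 to 0.10 for Hexa, -0.08 to 0.06 for Mthfd2, -0.12 to 0.00 for Srebf1, -0.06 to 0.04 for Trp53 and -0.17 to 0.30 for Txnip. The cause was not tested.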

Other observations

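Some genes outside the lists were silent in WT and were chosen here after their values were seen. Sox2, a transcription factor of neural and pluripotent cells, was at 14.5, 14.3, 14.5 and 14.7 CPM in AMPK KO, and 1 count was found over the WT group. H2-Ab1, a chain of MHC class II, was at 7.12 to 8.85 CPM in AMPK KO against 3 counts in WT. Fendrr, a long RNA that lies beside Foxf1, was at 6.41 to 7.59 CPM in AMPK KO with no count in WT, as Foxf1 itself was at 44.9 to 50.4 CPM against 0.176 to 0.512 CPM.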
